A study of Homo sapiens with 2 samples.

Results

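The Wnt ligands, their receptors, secreted inhibitors and first intracellular relays were followed in Y79 cells, an established human retinoblastoma line that grows in suspension. The group was chosen by gene symbol and not by any measured value. It held 49 of the 18841 genes with a symbol on the array, read by 70 of the 41000 transcript probes. The members were 19 Wnt ligands, 10 Frizzled receptors, 2 LRP co-receptors, 10 secreted inhibitors, 5 Dishevelled and Axin genes and 3 genes of the TCF7 family.

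There were 2 one-colour arrays, 1 per group. The siRNA-untreated group was Y79 cells that received no siRNA, and the siRNA-treated group was Y79 cells taken 48 h after an siRNA against Ep-CAM, the adhesion molecule whose gene carries the older symbol TACSTD1 on the array. The study's methods state that both cultures had been exposed to 5′-azacytidine beforehand to restore Ep-CAM expression, a step the sample labels do not give. No array of cells with a scrambled siRNA was used here, so the effect of transfection cannot be told apart from that of the Ep-CAM siRNA. The study's results speak of biological replicates, while the series holds 1 array per group. Of the retinal markers given at the end several were dim on both arrays. With 1 array per group there was no test and no error between cultures, and every ratio below is a description of these 2 arrays. The groups are called untreated and treated below.

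Wnt proteins are secreted lipid-modified ligands. They bind a Frizzled receptor together with LRP5 or LRP6, Dishevelled then carries the signal inward, and the Axin scaffold that marks beta-catenin for destruction is held at the membrane. Beta-catenin accumulates, enters the nucleus and acts with TCF and LEF factors on target genes. Secreted inhibitors work at 2 points, the SFRP proteins, FRZB and WIF1 by binding Wnt and the DKK proteins by binding the LRP co-receptors. In the retina the pathway is known for its roles in patterning, in the progenitors of the ciliary margin and, through FZD4, in vessel growth. Ep-CAM joins it in the nucleus, where its released intracellular part is known to bind FHL2, beta-catenin and LEF1.

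The probes below are those of the members with the largest ratios, WNT10B and WNT5B, and those of 3 members with a bright and a much weaker probe. The first 30 of the 60 bases of each are printed 5′ to 3′, with G and C in capitals because the base composition of the probes moved with their signal. Positions are on the hg17 build, as the files give them.

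WNT10B, chr12:47645704-47645763, minus strand: tttGGaGCCataaGatCtGtatCtaGaaaG
WNT5B, chr12:1626062-1626121, plus strand: CaCtaGGCCaaGaGGCCCtatGaaGGtGGC
SFRP2 bright probe, chr4:155060125-155060184, minus strand: CaGGCCtGCtCCaGaGCaCGGCtGaCCatt
SFRP2 dim probe, chr4:155059618-155059677, minus strand: ttataCCttCaatGGGaaCttaaaCtGtta
WNT7B bright probe, chr22:44666571-44666630, minus strand: aCaGaaaCtttCGCaaGtGGattttCtaCG
WNT7B weaker probe, chr22:44638724-44638783, minus strand: atttatGttttCttaGtatCaGaaGaGGat
TCF7L2 bright probe, chr10:114901475-114901534, plus strand: aaGCatCaGGaCtCCaaaaaGGaaGaaGaa
TCF7L2 dim probe, chr10:114915968-114916027, plus strand: ttaaaGtCtttGtaGCGtttaaaaaatata

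Signals are the scanner software's processed signals, in fluorescence units after background subtraction. Each array was divided by the median signal of its transcript spots, 48.8 for untreated and 50.0 for treated cells, and the log2 ratio then set treated over untreated cells. A probe counted as detected where the scanner software marked it well above background. A probe detected on 1 array only was given a bound, written as "at least N-fold". Where its dim signal exceeded the lowest detected signal of that array, as for WNT7A, the plain ratio stands and is counted with the bounds. Where both arrays were dim there is no ratio. A log2 ratio of at least 1 or at most -1, a change of 2-fold, was called higher or lower. Signals of different probes were not compared as amounts of transcript.

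Of the 70 member probes, 52 were measured on both arrays, 4 gave a bound and 14 were dim on both. Over genes, at the brightest probe of each, 37 were measured, 3 gave a bound and 9 were dim on both arrays. Of the 56 member probes with a ratio or bound, 1 was called higher, WNT5B, and 1 was called lower, WNT10B, which is 1.79% in each direction. Over all 29345 probes with a ratio or bound, 1.27% were called higher and 0.927% lower. Counted over genes, 1 of 40 members was called in each direction, beside 1.29% higher and 0.988% lower over all 15685 genes. A count of 1 member in each direction is near these shares. The median log2 ratio of the 52 measured member probes was -0.02 with an SD of 0.32, beside a median of -0.03 and an SD of 0.33 over the 26976 probes measured on both arrays. Of the 52, 48 lay within 0.5 of 0, or 92.3%, beside 89.3% of all probes.

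**Figure D1:**
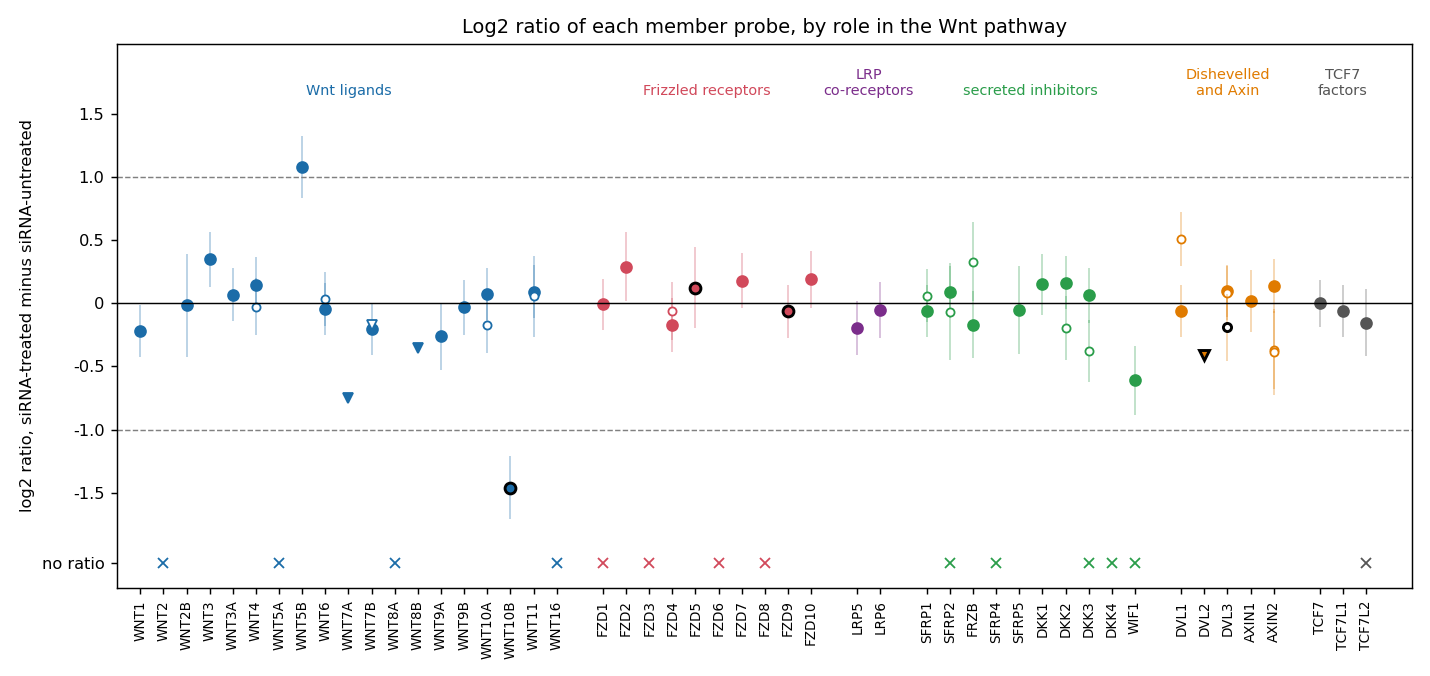
Treated over untreated cells as a log2 ratio (y axis) for each member probe, by gene and role (x axis). Filled circles are the brightest probe of a gene and open circles its other probes, triangles are bounds, crosses in the lowest line are probes dim on both arrays, black outlines mark spots in the corner of the array with a wide spread, vertical bars are the scanner software's error of 1 spot (for TCF7 the SD over 7 spots), and dashed lines mark 2-fold. WNT5B lies at 1.08 and WNT10B at -1.46, and no other member passes a dashed line.

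**Figure D2:**
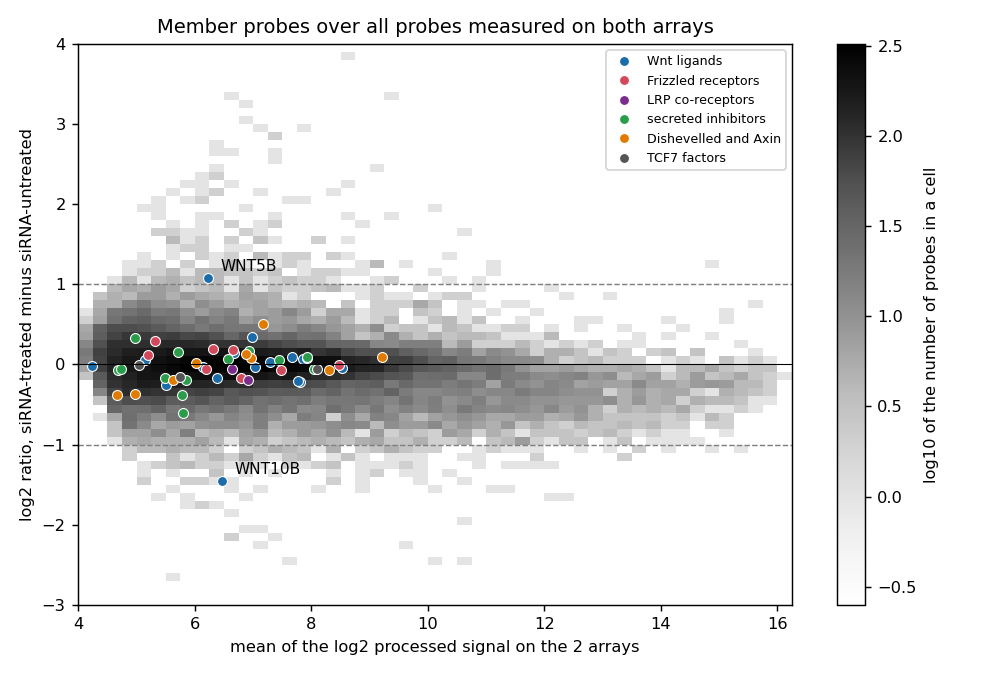
Member probes (coloured by role) over all 26976 probes measured on both arrays (grey, darker for more probes in a cell). The x axis is the mean log2 processed signal of the 2 arrays, the y axis is the log2 ratio, and the members other than WNT5B and WNT10B lie within the band of the other probes, between -0.61 and 0.51.

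Among the Wnt ligands 13 of 19 genes were detected on both arrays, 2 gave a bound and 4 were dim on both. WNT10B, a ligand of the beta-catenin branch, gave a signal of 144 in untreated and 53.7 in treated cells. This was 2.75-fold lower, a log2 ratio of -1.46 with a scanner error of 0.25. WNT5B, a ligand mostly known for signalling outside beta-catenin, gave 51.1 in untreated and 110 in treated cells. This was 2.11-fold higher, a log2 ratio of 1.08 with a scanner error of 0.24. Each of these 2 genes had a single probe and a single spot on the array, so neither ratio was repeated within the array. The scanner error covers the reading of a spot and not the spread between cultures.

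Both spots lay at the bottom edge of the array, in or beside an area with a wide spread of ratios. An earlier look at these arrays had set apart a corner that ran from row 355 to row 532 and from column 43 to column 85. In it 5.34% of tested probes were called higher and 2.17% lower, beside 0.435% and 0.671% outside it. WNT10B was printed at row 525 and column 52, inside the corner, and WNT5B at row 519 and column 41, 2 columns outside it. The 206 measured spots within 10 rows and 10 columns of WNT10B had a median log2 ratio of -0.30 and an SD of 0.58, and 19 of them were called lower and 5 higher. Of these neighbours, 1.46% had a ratio at or below that of WNT10B. The 266 measured neighbours of WNT5B had a median of -0.09 and an SD of 0.53, with 16 called lower and 6 higher, and 1.88% were at or above its ratio. Relative to the local median the log2 ratio was -1.16 for WNT10B and 1.16 for WNT5B. The part of the array position in these ratios was not tested. With the authors' deposited values, which were not background-subtracted, the log2 ratio was -0.60 for WNT10B and 0.50 for WNT5B, and neither passed 2-fold. Background left in both signals draws a ratio towards 0, so these values cannot decide whether both calls hold. Over all probes the calls fell from 372 higher and 272 lower to 87 and 80.

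**Figure D3:**
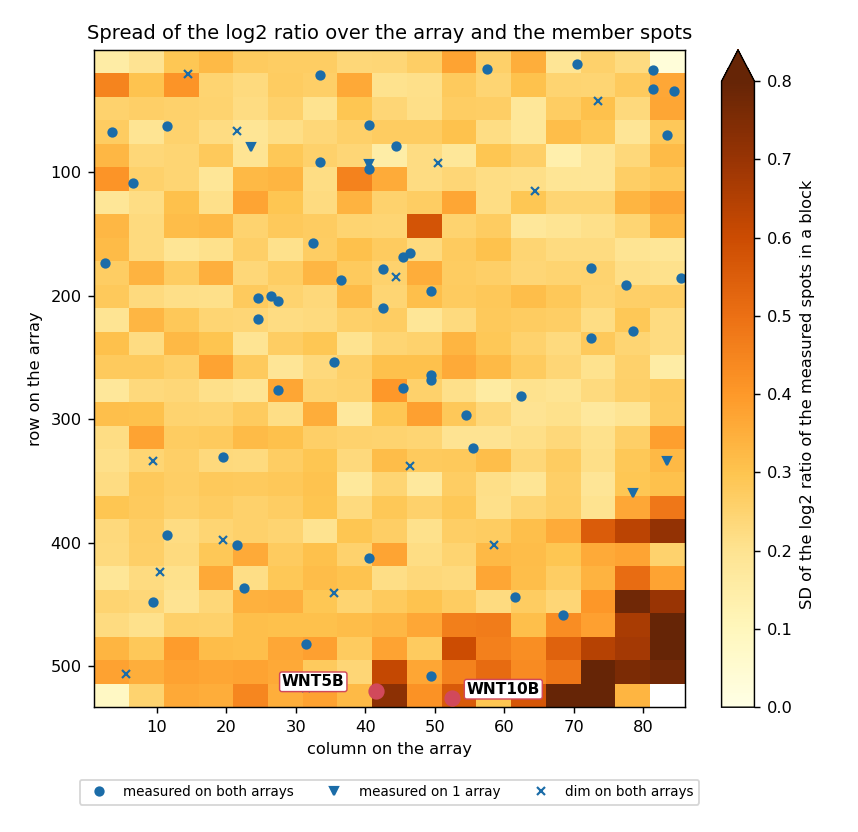
The array seen by row (y axis) and column (x axis), coloured by the SD of the log2 ratio of the measured spots in blocks of 19 rows and 5 columns, with the member spots printed once marked by how they were measured (TCF7, with 10 spots, is left out, and the white block held too few spots). WNT5B and WNT10B, in red, lie on the bottom edge among blocks of wide spread, while 63 of the 70 member probes lay outside the corner.

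The other members were printed mostly where the spread was narrow. Outside the corner lay 63 member probes, of which 50 had a ratio or bound. Their 47 measured log2 ratios had a median of -0.02 and an SD of 0.26, beside an SD of 0.29 for all probes printed once outside the corner. WNT5B was called among them and no member was called lower. Besides WNT10B the corner held FZD5, FZD9, a bound for DVL2, and 1 further probe each of DVL3 and FZD1, the last dim on both arrays.

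The other ligands with a single probe that was detected on both arrays had log2 ratios from -0.26 to 0.35. WNT1, the first vertebrate member of the family to be described, gave 238 in untreated and 209 in treated cells, a log2 ratio of -0.22. WNT3 gave 111 and 145, a ratio of 0.35, and WNT3A, the ligand commonly used to switch on beta-catenin in culture, gave 223 and 239, a ratio of 0.07. WNT3 had the highest of these and was still within 2-fold by a wide margin. WNT2B, known as a ligand of the ciliary margin of the eye, gave 18.6 and 18.8, close to the limit of detection, with a ratio of -0.02. WNT9A gave 49.3 and 42.2, a ratio of -0.26, and WNT9B gave 130 on both arrays, a ratio of -0.03. None of these 6 genes had a second probe.

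For ligands with a second probe, the probes measured on both arrays lay near 0. WNT4 gave 96.0 and 109 at its brighter probe, a ratio of 0.15, and -0.03 at the other. WNT6 gave 369 and 366, a ratio of -0.05, and 0.03 at the other. WNT10A, a close relative of WNT10B, gave 234 and 252, a ratio of 0.08, and -0.17 at the other. It thus did not share the low ratio of WNT10B at either probe. WNT11, a ligand known for directed cell movement in development, gave 195 and 213, a ratio of 0.09, and 0.05 at the other. WNT7B gave 232 and 206, a ratio of -0.20. Its other probe was detected on the untreated array alone, at 19.3 against 15.2, and was at least 1.13-fold lower.

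A further pair of ligands was detected in untreated cells alone. WNT7A, which with WNT7B acts on vessels of the brain, gave 35.7 in untreated cells and a dim 21.7 in treated cells, 1.68-fold lower. Its dim signal lay above 17.5, the lowest detected signal of the treated array, so this is the plain ratio and not a bound. WNT8B, a ligand of the early forebrain, gave 21.8 and a dim 15.8, at least 1.28-fold lower. Neither value reached 2-fold. With the authors' deposited values the log2 ratios were -0.28 for WNT7A and -0.18 for WNT8B. Those values keep the background, which draws the ratios of weak probes towards 0, so they cannot decide what part background subtraction had. WNT2, WNT5A, WNT8A and WNT16 were not well above background on either array, with signals between 3.50 and 11. WNT5A, the nearest relative of WNT5B, was among these, at 4.59 and 10.9, so no ratio can be set beside that of WNT5B.

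Of the Frizzled receptors, which span the membrane and bind Wnt through a cysteine-rich domain, 7 of 10 were detected on both arrays and none was called. Their 8 measured probes had a median log2 ratio of 0.06 and lay between -0.17 and 0.29. FZD1 gave 354 in untreated and 360 in treated cells, a ratio of -0.01. FZD2 gave 35.8 and 44.7, a ratio of 0.29, the highest of the receptors and close to its scanner error of 0.27. FZD4, the receptor for Norrin in retinal vessels, gave 116 and 105, a ratio of -0.17, and -0.06 at its other probe. FZD7 gave 93.8 and 109, a ratio of 0.18, and FZD10 gave 73.3 and 85.7, a ratio of 0.19. FZD5, a receptor of the early eye field, gave 34.7 and 38.6, a ratio of 0.12, and FZD9 gave 179 and 176, a ratio of -0.06. The last 2 were printed in the corner of the array, and relative to their neighbours there FZD5 had a log2 ratio of 0.29 and FZD9 one of 0.21, the latter with its sign changed. FZD3, FZD6 and FZD8 were dim on both arrays, with signals from 3.34 to 4.24.

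Both LRP co-receptors, single-pass membrane proteins of the LDL receptor family, were detected. LRP5 gave 128 and 114, a ratio of -0.20, and LRP6 gave 99.9 and 98.8, a ratio of -0.05. Each ratio was no larger than its scanner error, 0.21 and 0.22.

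Of the secreted inhibitors 8 of 10 were detected on both arrays and none was called. Their 13 measured probes had a median log2 ratio of -0.05, from -0.61 to 0.33. WIF1, which binds Wnt through its own WIF domain, was the lowest, at 67.7 in untreated and 45.4 in treated cells. This was 1.53-fold lower, a log2 ratio of -0.61 with a scanner error of 0.27. Its spot was in an area of narrow spread, with an SD of 0.25 among its neighbours, and the ratio relative to them was -0.50. The log2 ratio was -0.30 with the authors' deposited values and -0.20 with normexp at an offset of 50. Both keep an added amount in each signal, which draws ratios of weak probes towards 0. Normexp at that offset also moved the median of all probes to -0.20. The second WIF1 probe was dim on both arrays and could not repeat the value.

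The SFRP proteins carry a Frizzled-like domain that binds Wnt, and FRZB belongs to the same family. SFRP1 gave 267 in untreated and 263 in treated cells, a ratio of -0.06, and 0.06 at its other probe. SFRP2 gave 232 and 253, a ratio of 0.09, and -0.07 at a second probe, while the last was dim on both arrays. FRZB gave 47.3 and 43.0, a ratio of -0.17, but 0.33 at its other probe, so its 2 probes differed in sign. SFRP5 gave 26.7 and 26.4, a ratio of -0.05. SFRP4 was dim on both arrays, at 3.93 and 4.64.

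The DKK proteins block the LRP co-receptors. DKK1, the best known of them and itself a target of beta-catenin, gave 49.1 and 55.8, a ratio of 0.15. DKK2 gave 113 and 130, a ratio of 0.16, and -0.20 at its other probe. DKK3, a divergent member that does not act as a classical LRP antagonist, gave 92.0 and 98.5, a ratio of 0.06, but -0.38 at another probe and no ratio at the last. DKK4 was dim on both arrays, at 12.2 and 18.0. For the DKK genes with more than 1 measured probe the probes again differed in sign.

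The Dishevelled proteins pass the signal from Frizzled, and the Axins hold the destruction complex together. DVL1 gave 319 and 313, a ratio of -0.06, while its other probe gave 120 and 175, a ratio of 0.51 with a scanner error of 0.21. That second probe had the widest gap to its partner of all members, 0.57. DVL3 gave 566 and 620, a ratio of 0.10, with 0.08 and -0.19 at its other probes. DVL2 was detected in untreated cells alone, at 22.7 against 10.9, and was at least 1.33-fold lower. With the authors' deposited values, which keep the background, its log2 ratio was -0.18. AXIN1 gave 63.9 and 66.3, a ratio of 0.02. AXIN2, widely used as a readout of beta-catenin activity, gave 111 and 124, a ratio of 0.13. Its other probes gave -0.37 at 35.1 and 27.8, and -0.39 at 28.5 and 22.4. The brightest AXIN2 probe and the other 2 thus pointed in opposite directions, and none reached 2-fold.

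All 3 TCF7 family genes, nuclear partners of beta-catenin, were detected. TCF7L1, known mainly as a repressor, gave 276 and 271, a ratio of -0.06. TCF7L2 gave 55.6 and 51.2, a ratio of -0.15, and its other probe was dim on both arrays. TCF7 was printed at 10 places, and 7 of its spots were free of outlier flags on both arrays. Their signals ran from 29.3 over a median of 31.3 to 37.3 in untreated cells, and from 30.2 over a median of 33.9 to 34.9 in treated cells. The groups overlapped, and the mean log2 ratio was -0.00 with an SD of 0.19 over the 7 spots, 4 above 0 and 3 below. Such repeated spots give the spread within an array and leave out that between cultures. Over the 194 probes printed 10 times the median SD was 0.14. Over the 58 of them with an untreated signal within 2-fold of that of TCF7 it was 0.24.

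Within genes, probes repeated a ratio only coarsely. Of the 17 members with more than 1 probe, 13 had at least 2 measured. The range of log2 ratio among the probes of a gene had a median of 0.24 and reached 0.57, and no gene had probes that differed by more than 1. The other 32 members, WNT5B and WNT10B among them, had 1 probe.

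Which members were detected went along with the base composition of their probes. The 14 member probes dim on both arrays had a median G and C content of 35%, from 20% to 45.0%, and the 52 measured on both had a median of 45.0%, from 30.0% to 76.7%. Over all probes these medians were 36.7% and 45.0%. Across the 70 member probes, G and C content and log2 signal in untreated cells had a Pearson r of 0.57 and a Spearman rho of 0.53, beside 0.49 and 0.54 over 40997 probes. These correlations are across probes of 1 array, which are not independent replicates. In 15 of the 17 members with several probes the probe richest in G and C was brighter than the poorest, FZD4 and SFRP1 being the exceptions. The SFRP2 probes printed above held 65.0% and 35% G and C and gave 232 and 16.2 in untreated cells. The WNT7B pair held 45.0% and 38.3% and gave 232 and 19.3, and the TCF7L2 pair held 40% and 23.3% and gave 55.6 and 3.32. Probes of a gene also differ in their place in the transcript, and its part in these gaps was not tested. For the 9 members dim on both arrays the level of the transcript was not measured. Their single probes held from 20% (WNT16) over 33.3% (FZD3) and 35% (FZD8) to 45.0% (WNT8A and DKK4) G and C. The log2 ratio itself moved little with base composition, with an r of 0.14 over the 52 member probes and 0.07 over all probes.

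**Figure D4:**
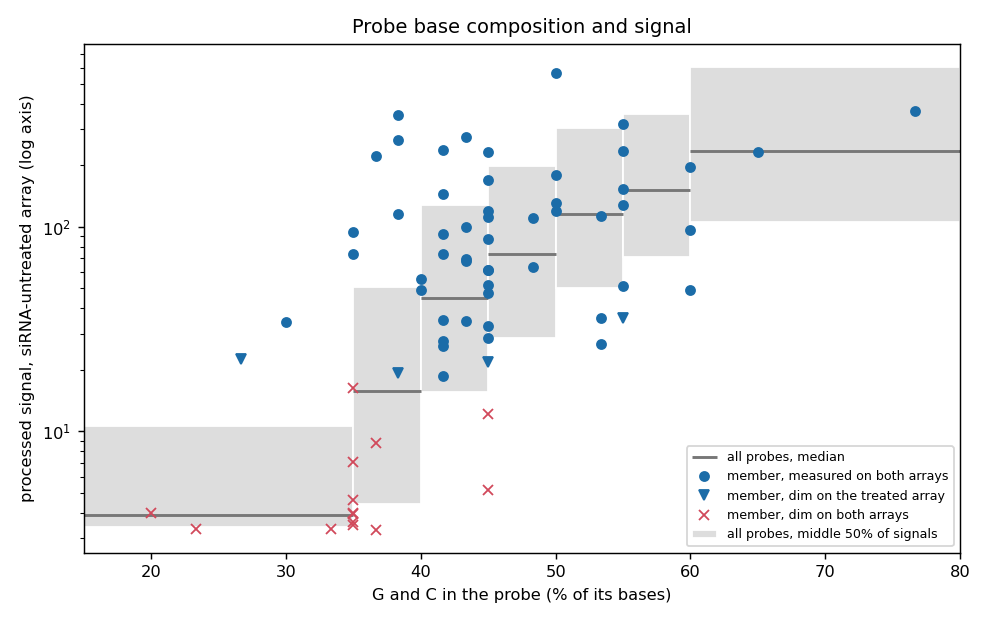
G and C content of each member probe (x axis, % of its bases) against its processed signal in untreated cells (y axis, log scale). Circles were measured on both arrays, triangles were dim on the treated array and crosses dim on both, grey boxes show the middle 50% and grey lines the median of all probes in each range of G and C content (the first and last ranges reach to the ends of the scale), and the 14 crosses lie at 45.0% G and C or less.

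The rest of the pathway was read from 5 lists of 106 further genes, of which 104 were on the array under the symbols searched and 94 had a ratio or bound. None was called higher and 1 was called lower, beside the 1.29% and 0.988% called over all genes, so these counts are not set apart from that background. The gene called lower was JUN, a partner of FOS in AP-1 that beta-catenin can switch on, which was printed at 10 places. Its mean signal was 8048 in untreated and 2613 in treated cells, a log2 ratio of -1.65 with an SD of 0.11 over spots. The 20 genes of the destruction complex and beta-catenin were all measured, with a median of -0.16, 17 below 0 and 3 above. All probes with a signal above 10000 had a median of -0.29, those from 1000 to 10000 one of -0.21, and those from 100 to 1000 one of -0.02. With quantile normalization, which sets both arrays to 1 distribution of signals, the median of these 20 genes was -0.05, with 15 below 0 and 5 above. The median was -0.02 over 23 nuclear partners, 0.01 over 14 genes of ligand processing, -0.07 over 15 genes of the receptors and polarity proteins outside the beta-catenin branch and -0.01 over 25 classical target genes, the members AXIN2, DKK1 and TCF7 included.

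The nuclear partners of Ep-CAM were also looked up, after their values had been seen. CTNNB1, the gene of beta-catenin, gave 6168 and 5675, a log2 ratio of -0.15, and -0.51 at its other probe. LEF1 gave 38043 and 30082, a ratio of -0.37, and -0.49 at its other probe. The 384 measured probes with a signal above 10000 had a median of -0.29 with an SD of 0.30. FHL2 gave 106 and 107, a ratio of -0.02. MYC, a target named in accounts of Ep-CAM signalling, gave 873 and 891, a ratio of -0.01. None of these 4 genes passed 2-fold as processed here, and LEF1 did, as lower, with normexp at an offset of 50, which moved the median of all probes to -0.20.

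The targeted gene could not be read. The single TACSTD1 probe, at chr2:47525545-47525604 on hg17, gave 15.6 in untreated and 12 in treated cells and was dim on both, so these arrays hold no measured check of the knockdown. The study itself reports lower Ep-CAM at 48 h by quantitative PCR and by western blot. The reference transcript HPRT1, printed at 10 places, was also dim on both, at 6.96 and 7.59. GAPDH gave 250 and 251, and ACTB gave 68726 and 56442. A dim probe is thus not read as absence of its transcript. Of 8 photoreceptor and retinoblastoma markers, 4 were detected in untreated and 3 in treated cells. CRX gave 86.8 and 68.7, OTX2 gave 70.4 and 52.0, and ARR3 gave 82.0 and 72.5, while NRL, RCVRN, NEUROD1 and RXRG were dim on both arrays. The summed signal of the 8 was 301 and 241. Such sums include dim probes and serve to set the arrays side by side within a list, not to compare lists. Of 6 epithelial markers all 6 were detected on both arrays, with summed signals of 1292 and 1345, and so were 5 of 6 fibroblast markers, with 1413 and 1489. All 6 leukocyte markers were detected too, with 4939 and 2677, most of the gap being LYZ, at 3045 and 799. Of 6 markers of retinal glia and pigment epithelium 4 were detected, with 682 and 712. The part of other cells in the ratios of the Wnt genes was not tested.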

How the data were processed

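RNA from 1 sample of siRNA-untreated and 1 of siRNA-treated Y79 cells had been hybridised in Cy3 to Agilent whole genome arrays. The authors scanned them and deposited the intensity of each spot from Feature Extraction, version 9.5.3.1 per the file headers, as the background-subtracted processed signal, with mean and background intensities. They also deposited a value table for the series, whose score per probe equalled the median spot brightness within 0.5 for all 40736 probes matched. Its column medians were 120 and 123, and it is not background-subtracted or scaled. Probe positions are hg17, and exon or UTR annotation of that build was not used here.

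The 45015 spots per array included 43376 transcript spots. Without control spots and spots flagged as outliers (117 and 131), signals were scaled to the 50th percentile of their array, floored at 0.01, put on a log2 scale and averaged over the spots of a probe. Detection meant that at least 50% of its spots were well above background, as were 70.4% of all spots on the untreated and 68.0% on the treated array. The lowest such signals, 14.9 and 17.5, set the bounds, except where the dim signal itself was higher, as for WNT7A. Precision is limited by having 1 array per group. The correlation of log2 signal between arrays was 0.986 over all probes and 0.964 over members.

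Members were 49 genes matched by symbol. Each is accounted for, with values in full where it was called or detected on both arrays, and the probe of highest mean signal stood for a gene. Pathway genes were named where a probe was called, with TACSTD1, and 4 others after their values were seen. Of the 70 member probes, 67 matched RefSeq by accession with the same symbol, and all 49 symbols were in the RefSeq table (GRCh38.p14, used for names alone). Sequences are those of the array design in the files. The members, lists and tests were chosen with earlier results of these data known. Calculations were tested on simulated data and used Python 3.11.15 with pandas 2.3.3, numpy 2.4.6 and scipy 1.17.1, and R 4.3.3 with limma 3.58.1 for normexp. Alternatives were other scalings, background corrections, floors, filters, thresholds and probe rules, and a correction for local position.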

Additional observations from a re-analysis of the deposited data

How the results depend on the processing

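Scaling by the 75th percentile, by probes detected on both arrays, by quantiles or not at all, a floor of 5, a local median, and the mean over probes left WNT5B called higher and WNT10B called lower, with JUN the only pathway gene called. For these 2 ligands, with 1 probe each, a floor of 5 and the mean over probes could not change the ratio. The other constant divisors shift every ratio by too little to undo either call. Within this list only quantiles and the local median could have changed these 2 calls. The calls of both ligands were lost, with 0 member probes and 0 member genes in either direction, with normexp at an offset of 50, with normexp fitted without the 1 spot dimmer than its background, and with the authors' deposited values, which are not background-subtracted. Each of these keeps an offset or the background in the signals, and an added amount draws the ratios of weak probes towards 0. Normexp at an offset of 50 also shifted ratios down, with 1056 of all probes called lower and 45 higher. The part of either in the lost calls was not tested, so the loss cannot decide whether both calls hold. Over all the settings named so far the log2 ratio of WNT10B ran from -1.46 to -0.60 and that of WNT5B from 0.44 to 1.16, with the direction kept. WIF1 ran from -0.61 to -0.20 and WNT7A from -0.75 to -0.24. Normexp at an offset of 50 moved the median of all probes to -0.20 and that of members to -0.16 and called 9 pathway genes lower, LEF1 and JUN among them. Fitted without the 1 dim spot, normexp gave -0.02 for both medians and called JUN alone. Without the filter on dim probes, 2 member probes and 2 genes were called in each direction, DVL2 and WNT5A besides the first pair. At a ratio above 1.5 or below 0.55, which are looser limits, 3 pathway genes were called higher, AES, BTRC and CCND1, as were 1177 of all 29345 probes. BTRC and CCND1 lay in the corner, and their other probes gave log2 ratios of -0.02 for BTRC and from -0.71 to -0.08 for CCND1. Leaving out the corner, chosen after the data were seen as was the second normexp fit, removed WNT10B, so 0 members were called lower. The median of members stayed within 0.14, the technical SD, of its reported value under each alternative tried. For the 40 members with a ratio, 374 of 433 values under alternatives moved by less than that SD, and 33 of the 59 that moved more came from normexp at an offset of 50. Another constant divisor shifts every ratio, and the median of members, by the same small amount. A floor of 5 changed no ratio of these members, and the mean over probes changes nothing for a gene with 1 probe. Many of the small moves were thus fixed in advance, and their number does not measure robustness. No paired analysis was possible because each group had 1 array, and for the same reason no array could be left out.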
